A study of Mus musculus with 4 samples.

Results

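The prostaglandin genes described here are 10 rows of a table of 22802 gene loci, chosen by symbol for their role: the cyclooxygenases Ptgs1 and Ptgs2, the terminal synthases Ptges, Ptgis, Ptgds and Hpgds, the degrading dehydrogenase Hpgd, and the receptors Ptger2, Ptger4 and Ptgir. All 10 symbols were found, each in 1 row. They were followed in testicular interstitial cells of C57BL/6J mice at postnatal day 10. All animals carried mFLE-Cre and CAG-CAT-EGFP, a reporter that makes EGFP where Cre recombinase has acted, and the sources used here do not name the element that drives mFLE-Cre. Sorted EGFP-expressing cells formed 2 populations, laminin-positive and laminin-negative, with 2 RNA sequencing libraries each. In the design text the laminin-negative population is called EGFP-weak, so laminin staining and EGFP level cannot be told apart. Nothing in the labels says that the libraries of a population came from separate animals, and p-values then reflect the spread among these libraries alone, possibly a technical one.

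Prostaglandins are made from arachidonic acid in steps. Phospholipases free the fatty acid from membranes, a cyclooxygenase turns it into the unstable intermediate PGH2, and a terminal synthase turns PGH2 into PGE2, PGD2, prostacyclin (PGI2), PGF2α or thromboxane. Each product acts through receptors on nearby cells, and 15-hydroxyprostaglandin dehydrogenase inactivates PGE2 and related products inside cells. Smooth muscle responds to these lipids in both directions: receptors that raise cyclic AMP, among them EP2, EP4 and the prostacyclin receptor, relax it, whereas thromboxane and PGF2α receptors contract it.

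Laminin-positive cells held more RNA for prostacyclin synthase and for both cyclooxygenases, and less RNA for the inducible PGE synthase, than laminin-negative cells. Ptgis averaged 334 ± 8.57 FPKM in laminin-positive and 50.5 ± 3.23 FPKM in laminin-negative cells (SD, n = 2 each), a 6.62-fold difference. Ptges averaged 2.82 ± 0.192 FPKM in laminin-positive and 14.1 ± 0.319 FPKM in laminin-negative cells, 4.99-fold lower. Ptgs1 averaged 1.49 ± 0.125 FPKM in laminin-positive and 0.0766 ± 0.0267 FPKM in laminin-negative cells, where it rests on few fragments. Ptgs2 averaged 1.39 ± 0.0741 FPKM in laminin-positive and 0.690 ± 0.219 FPKM in laminin-negative cells. Its difference was small and did not pass the test under every alternative. Of the receptors, Ptger2 was low but higher in laminin-positive cells, at a mean of 1.37 against 0.405 FPKM. Ptger4 did not pass the test and Ptgir was barely detected.

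FPKM are fragments scaled to the length of the transcript and to the number of fragments mapped. Values were tested with limma as log2(FPKM + 1), a scale that compresses differences of genes expressed at about 1 FPKM or less, over 12348 genes with at least 1 FPKM in at least 2 libraries, with Benjamini-Hochberg adjustment over all of them and 0.05 as the threshold. In laminin-positive cells 26.7% of these genes were called higher and 26.3% lower. Of the 10 prostaglandin genes 8 were tested, of which 5 were called higher and 1 lower. Ptgs1, Ptgs2, Ptgds and Ptger2 passed the filter only through the laminin-positive libraries and so had to differ, and Hpgds and Ptgir did not pass it. Without a filter on low values all 10 could be tested, and 6 were called higher and 1 lower, where 19.7% and 17.8% of 18255 rows were. The median log2 difference of the 10 was 0.40, against 0.02 over all those rows. With the filter at 1 FPKM in all 4 libraries, 4 of the 10 were tested, of which 1 was called higher and 1 lower, where 24.7% and 25.5% of 11155 genes were. By FPKM alone, both laminin-positive libraries lay above both laminin-negative ones for 6 of the 10 and below for 2, as for 36.3% and 31.3% of rows above 0. The direction of each was the same under every alternative in which it was tested.

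**Figure D1:**
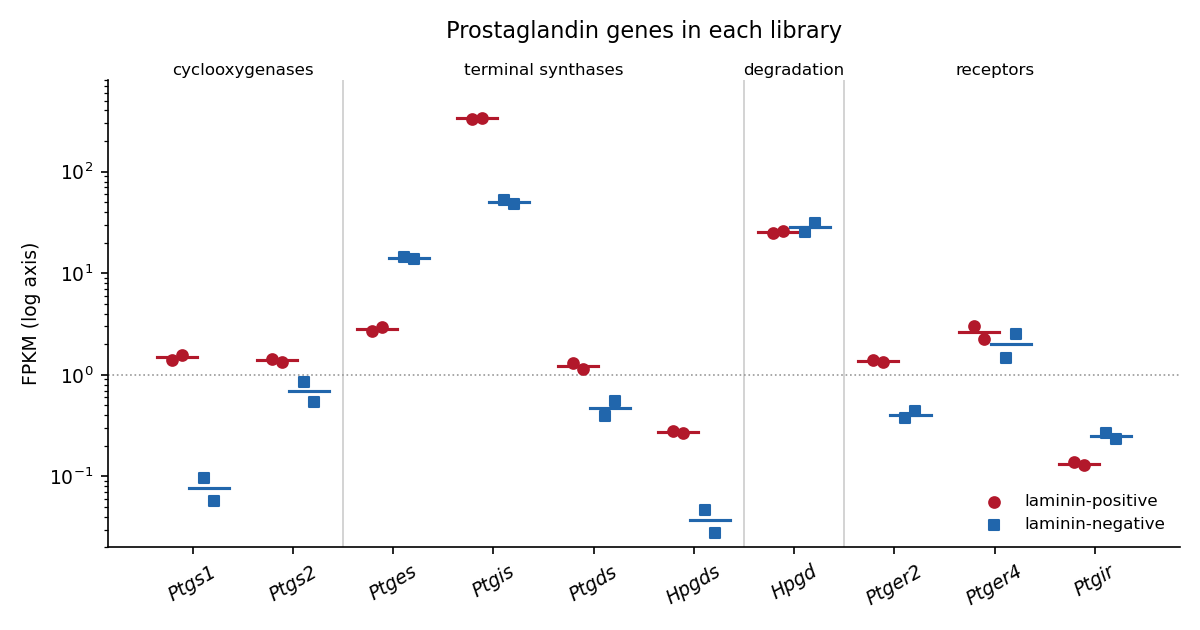
FPKM of the 10 prostaglandin genes in each library on a log axis, grouped by role, with red circles for the 2 laminin-positive and blue squares for the 2 laminin-negative libraries, short lines for group means and a dotted line at 1 FPKM. Ptgis stands highest in both populations, and the groups overlap for Hpgd and Ptger4 alone.

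The sources used here give no read totals. In genes with 1 annotated transcript of at least 800 bases, the lowest values above 0 gathered at 0.0347 to 0.0363 FPKM × kb, with 90 to 123 genes between 0.0225 and 0.045 FPKM × kb and 2 to 7 genes below. Taken as the worth of 1 fragment, this puts the values of Ptgs1 in laminin-negative cells at roughly 8 and 5 fragments and those of Hpgds there at 5 and 3, using the longest annotated transcript. The laminin-positive values of Ptgir rest on roughly 13 and 12 fragments, and the laminin-negative values of Ptgds on roughly 14 and 21. These estimates are rough, and fold differences against such values are uncertain in size.

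The populations also differed in the cells they resembled. Of 6 smooth muscle and peritubular myoid markers 6 were higher in laminin-positive libraries, with summed levels of 5345 to 5404 FPKM in laminin-positive and 154 to 167 FPKM in laminin-negative cells, as were 6 of 6 pericyte markers (326 to 334 against 58.7 to 60.8 FPKM). Of 6 Leydig markers 6 were lower (126 to 171 FPKM in laminin-positive against 4517 to 4762 FPKM in laminin-negative cells), with most of the sum from the row of Insl3, which also names another gene. Of 5 fibroblast markers 5 were lower (438 to 473 against 2289 to 2709 FPKM). Of all rows above 0, 36.3% lay above without overlap and 31.3% below. Of 6 Sertoli markers 4 lay above without overlap and 1 below. Their sum was 121 FPKM in each laminin-positive library against 60.3 to 65.0 FPKM, mostly made of Aard (100 and 104 against 51.8 and 49.0 FPKM). Of 6 germ cell markers 5 lay above, at 22.0 to 22.8 against 9.03 to 12.0 FPKM. Of 6 endothelial markers 4 lay above and 2 below, at 14.0 to 14.9 against 169 to 177 FPKM, sums mostly made of Cdh5 (9.89 and 9.25 against 165 and 173 FPKM), which lay below. In bulk libraries such as these, fewer cells of a type and less RNA per cell cannot be told apart.

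The cyclooxygenases are shown first by their promoters, together with that of Ptges. These are genes of the cyclooxygenase step and of the terminal step of PGE2 synthesis, and they moved in opposite directions. The sequences are from RefSeq on GRCm38.p6 and run from 250 bases before to 50 bases after the annotated start, at chr2:36230176-36230475 on the plus strand for Ptgs1, chr1:150099781-150100080 on the plus strand for Ptgs2 and chr2:30903248-30903547 on the minus strand for Ptges. Capitals mark matches to the motifs searched, on either strand, none of which overlap one another.
Ptgs1: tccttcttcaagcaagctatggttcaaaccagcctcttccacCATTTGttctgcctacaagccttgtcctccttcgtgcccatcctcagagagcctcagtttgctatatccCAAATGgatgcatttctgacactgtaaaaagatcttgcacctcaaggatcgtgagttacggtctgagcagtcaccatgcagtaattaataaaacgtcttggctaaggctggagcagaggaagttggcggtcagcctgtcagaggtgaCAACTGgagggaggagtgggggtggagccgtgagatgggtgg
Ptgs2: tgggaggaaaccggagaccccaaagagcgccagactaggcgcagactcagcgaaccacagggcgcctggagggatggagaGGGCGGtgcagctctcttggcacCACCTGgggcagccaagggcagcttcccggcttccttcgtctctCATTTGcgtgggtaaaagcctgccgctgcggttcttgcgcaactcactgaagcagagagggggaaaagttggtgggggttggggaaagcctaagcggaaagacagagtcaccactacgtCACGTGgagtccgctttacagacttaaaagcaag
Ptges: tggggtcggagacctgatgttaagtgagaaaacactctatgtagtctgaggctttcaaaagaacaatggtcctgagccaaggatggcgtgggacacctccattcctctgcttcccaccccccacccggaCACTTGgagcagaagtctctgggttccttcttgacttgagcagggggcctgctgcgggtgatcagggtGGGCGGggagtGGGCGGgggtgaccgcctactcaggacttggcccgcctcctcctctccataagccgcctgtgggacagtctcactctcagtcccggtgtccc

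The motifs were a TATA box (TATAAA), a GC box (GGGCGG), a cyclic AMP response element (TGACGTCA), an AP-1 site (TGANTCA), an NR5A site (AAGGTCA), an E-box (CANNTG) and the CArG box by name. The Ptges window held 2 GC boxes, 53 to 48 and 42 to 37 bases before the start, and 1 E-box. The Ptgs2 window held 1 GC box and 3 E-boxes, one of them the palindrome CACGTG at bases 17 to 22, and the Ptgs1 window held 3 E-boxes and no GC box. Of 32851 promoters of the same length, 35.7% held a GC box and 72.3% an E-box. Promoters were found for 9 of the 10 genes, of which 5 held a GC box and 8 an E-box, while 1 held a TATA box (Hpgd) and 1 an AP-1 site (Ptgds). None of the 9 windows held the cyclic AMP element, the NR5A site or the CArG box, which 1.79%, 4.72% and 1.63% of all promoters held. The deposited locus of Ptgs2 begins 93 bases downstream of the RefSeq start, whereas for the other 8 both starts coincide. A match is a stretch of letters and shows no binding.

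Ptgs1 encodes cyclooxygenase-1, the form that many tissues make at a steady level, and Ptgs2 the form that is induced by growth factors and injury. Ptgs1 (chromosome 2, 36230426 to 36252272, GRCm38, GENCODE M21) had 1.40 and 1.58 FPKM in laminin-positive libraries and 0.0954 and 0.0577 FPKM in laminin-negative libraries. Both laminin-positive values lay far above both laminin-negative ones. With the filter, the log2(FPKM + 1) difference was 1.21 (SE 0.13, limma adjusted p = 6.79e-06), and 5.65% of all tested genes differed at least as far in that direction. Ptgs1 passed that filter only through the laminin-positive libraries, and without a filter the limma adjusted p was 2.955e-04. The ratio of means was 19.4, and with a pseudocount of 0.1 the log2 difference was 3.17, so its size depends on how the near-zero level in laminin-negative cells is treated.

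Ptgs2 (chromosome 1, 150100031 to 150108227) had 1.45 and 1.34 FPKM in laminin-positive libraries and 0.845 and 0.535 FPKM in laminin-negative libraries. The groups did not overlap, and the laminin-negative libraries stood further apart than the laminin-positive ones. Ptgs2 passed the filter only through the laminin-positive libraries. It was higher by 0.51 on the log2 scale (SE 0.14, limma adjusted p = 0.00757, and 0.0248 without a filter). This call was lost without laminin-negative replicate 2 (adjusted p = 0.05002) and without variance shared across genes (0.139), in a range from 0.00191 to 0.139 over the alternatives. Both rows named for opposite-strand transcripts near Ptgs2 were at or near 0, with Ptgs2os listed at 0 in all 4 libraries. Ptgs2 is itself an immediate early gene, a class that cell dispersal can induce. Of 10 other immediate early genes 4 were called higher in laminin-positive cells and 0 lower (2 and 0 without a filter), where 26.7% and 26.3% of tested genes were (19.7% and 17.8% without a filter), and their summed levels were 12832 and 11715 FPKM in laminin-positive against 11147 and 11041 FPKM in laminin-negative libraries. Their part in the Ptgs2 difference was not tested.

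Since FPKM are per length, the cyclooxygenase levels can be set against each other. Ptgs1 made up 49.2% and 54.0% of the summed Ptgs1 and Ptgs2 level in laminin-positive libraries, and 10.1% and 9.73% in laminin-negative libraries. Cyclooxygenase RNA was thus about evenly divided in laminin-positive cells and mostly Ptgs2 in laminin-negative cells. The share differed by 41.7 percentage points, but 2 against 2 libraries cannot go below p = 0.333 in a two-sided exact permutation test, the value obtained. The summed level was 2.84 and 2.92 FPKM in laminin-positive and 0.940 and 0.593 FPKM in laminin-negative libraries.

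**Figure D2:**
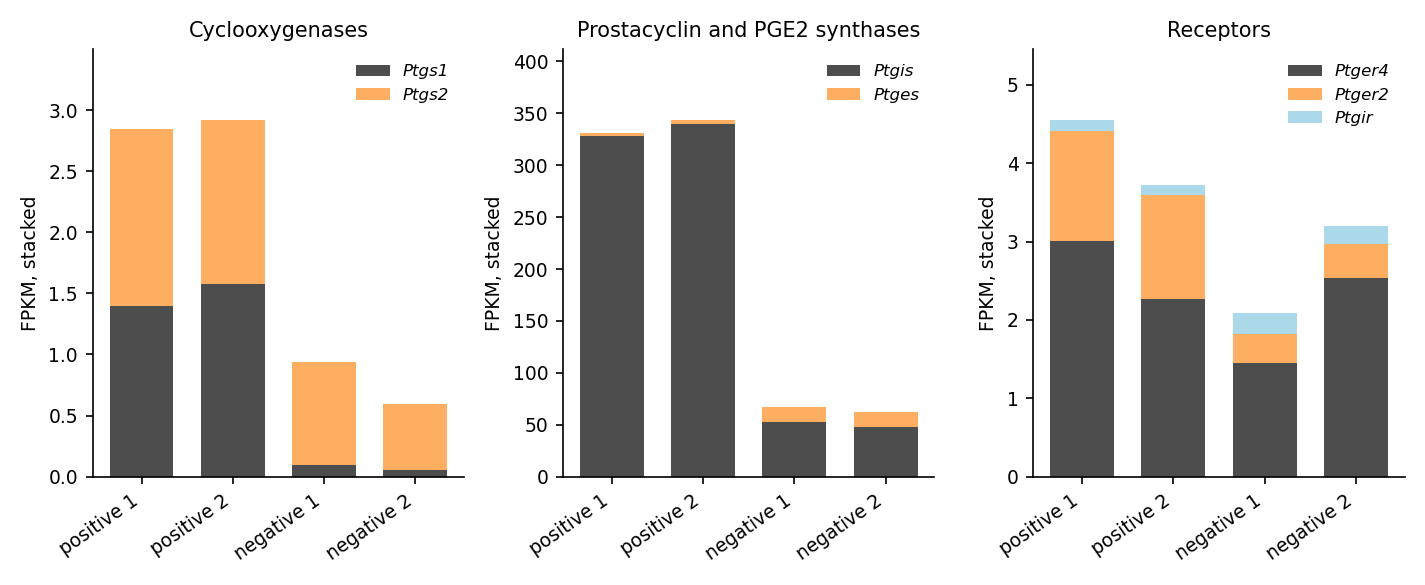
Stacked FPKM per library, the 2 laminin-positive libraries left of the 2 laminin-negative ones, for the cyclooxygenases, the prostacyclin and PGE2 synthases and the receptors, with axes from 0. Ptgs1 makes up 49.2% and 54.0% of the cyclooxygenase bars in laminin-positive libraries and 10.1% and 9.73% in laminin-negative libraries.

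Ptgis encodes prostacyclin synthase, a cytochrome P450 best known from blood vessel walls, where its product relaxes smooth muscle and hinders platelet aggregation. Ptgis (chromosome 2, 167191805 to 167240604) had 328 and 340.1 FPKM in laminin-positive libraries and 52.8 and 48.2 FPKM in laminin-negative libraries. The groups lay far apart against a narrow spread. On the log2 scale the difference was 2.70 (SE 0.07, limma adjusted p = 4.97e-11), and 0.923% of tested genes rose at least as much. By mean FPKM Ptgis ranked 214th of 22802 rows in laminin-positive and 1516th in laminin-negative cells, so it was an abundant transcript in both. Transcripts annotated on the opposite strand overlap Ptgis, and likewise Ptgs1, Hpgds, Ptger2 and Ptger4, for Ptger4 those of a protein-coding gene. The sources used here do not say whether the authors counted by strand. The smooth muscle and pericyte markers rose in the same libraries, and their part in the Ptgis difference was not tested.

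Ptges encodes microsomal PGE synthase-1, the inducible enzyme that turns PGH2 into PGE2. Ptges (chromosome 2, 30889471 to 30929863) had 2.68 and 2.96 FPKM in laminin-positive libraries and 14.3 and 13.9 FPKM in laminin-negative libraries. All laminin-positive values lay below all laminin-negative ones. It fell by 1.98 on the log2 scale (SE 0.10, limma adjusted p = 8.21e-09), and 1.80% of tested genes fell at least as much. The fibroblast and Leydig markers fell in the same libraries, and their part was not tested. Within a library, the ratio of Ptgis to Ptges was 122 and 115 in laminin-positive and 3.69 and 3.48 in laminin-negative libraries.

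PGD2 is made by the secreted lipocalin-type synthase Ptgds and the blood cell synthase Hpgds, which were both low. Ptgds (chromosome 2, 25466709 to 25470046) had 1.30 and 1.15 FPKM in laminin-positive libraries and 0.391 and 0.548 FPKM in laminin-negative libraries, without overlap. Ptgds passed the filter only through the laminin-positive libraries. It was higher by 0.60 on the log2 scale (SE 0.13, limma adjusted p = 0.00202, and 0.00835 without a filter). With the filter, it was not called when each gene's variance was estimated alone (0.0732). Hpgds (chromosome 6, 65117293 to 65144908) had 0.283 and 0.269 FPKM in laminin-positive libraries and 0.0469 and 0.0279 FPKM in laminin-negative libraries. Hpgds was thus higher in both laminin-positive libraries, but below 1 FPKM throughout. Without a filter its log2 difference was 0.30 (SE 0.05, limma adjusted p = 0.00492).

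Hpgds is made by mast cells and macrophages, and Ptgs1 by platelets and macrophages, so their markers are given beside these genes. All 8 macrophage markers lay above without overlap in laminin-positive libraries. Of all rows above 0, 36.3% lay above in this way and 31.3% below. The marker sums were 26.3 to 32.2 FPKM in laminin-positive and 3.63 to 5.03 FPKM in laminin-negative cells, and no macrophage marker was at 0 throughout. Without a filter 7 of the 8 were called higher, where 19.7% of rows were. The 6 tested with the filter were called higher, but most of these passed it only through the laminin-positive libraries. The macrophage receptor gene Csf1r had 3.83 and 3.36 FPKM in laminin-positive against 0.219 and 0.156 FPKM in laminin-negative libraries. The part of macrophages in the differences of Hpgds and Ptgs1 was not tested. All 6 mast cell markers were listed at 0 in both laminin-positive libraries, and summed to 0.906 and 0.939 FPKM in the laminin-negative ones. Fcer1a and Ms4a2 were at 0 in all 4. Of 5 megakaryocyte and platelet markers 2 lay above and 1 below, Ppbp was at 0 throughout, and the sums were 31.8 to 33.7 against 24.4 to 25.1 FPKM. Most of these sums was the row of Gp1bb (25.0 and 24.3 against 24.2 and 22.9 FPKM), which also names another gene. Pf4, which macrophages also make, had 8.22 and 7.16 FPKM in laminin-positive and 0.105 and 0.862 FPKM in laminin-negative libraries.

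Hpgd encodes 15-hydroxyprostaglandin dehydrogenase, which starts the breakdown of PGE2. Hpgd (chromosome 8, 56294585 to 56321043) had 25.1 and 25.9 FPKM in laminin-positive libraries and 25.6 and 30.9 FPKM in laminin-negative libraries. The groups overlapped, and the log2 difference of -0.14 (SE 0.10) did not pass the test (limma adjusted p = 0.250). Without laminin-negative replicate 1 it was called lower (adjusted p = 0.0251), in a range from 0.0251 to 0.963 over the alternatives. Ptgis stood 13.1-fold above Hpgd in both laminin-positive libraries, and 2.06-fold and 1.56-fold above it in the laminin-negative ones.

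The receptors in the set raise cyclic AMP. Ptger2, which encodes the PGE2 receptor EP2 (chromosome 14, 44988195 to 45003820), had 1.40 and 1.33 FPKM in laminin-positive libraries and 0.374 and 0.436 FPKM in laminin-negative libraries. Its groups did not overlap, and it was higher by 0.75 on the log2 scale (SE 0.12, limma adjusted p = 3.00e-04). Ptger2 passed the filter only through the laminin-positive libraries, and without a filter the limma adjusted p was 0.00233. Ptger4, which encodes EP4 (chromosome 15, 5206661 to 5244187), had 3.01 and 2.27 FPKM in laminin-positive libraries and 1.45 and 2.53 FPKM in laminin-negative libraries. Its groups overlapped, with the higher laminin-negative library above the lower laminin-positive one, and the log2 difference of 0.30 (SE 0.18) did not pass the test (limma adjusted p = 0.194). It was called higher without laminin-positive replicate 2 (0.0366) and without laminin-negative replicate 2 (0.0147), in a range from 0.0147 to 0.872.

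Ptgir, the receptor gene for prostacyclin (chromosome 7, 16906490 to 16910905), had 0.137 and 0.130 FPKM in laminin-positive libraries and 0.269 and 0.232 FPKM in laminin-negative libraries. The groups did not overlap, and both lay far below the level of Ptgis. Without a filter its log2 difference of -0.14 (SE 0.05) did not pass the test (limma adjusted p = 0.0878). Ptger4 had the highest level of the 3 receptors in all 4 libraries. Its share of the summed Ptger2 and Ptger4 level was 68.2% and 63.0% in laminin-positive and 79.5% and 85.3% in laminin-negative libraries.

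**Figure D3:**
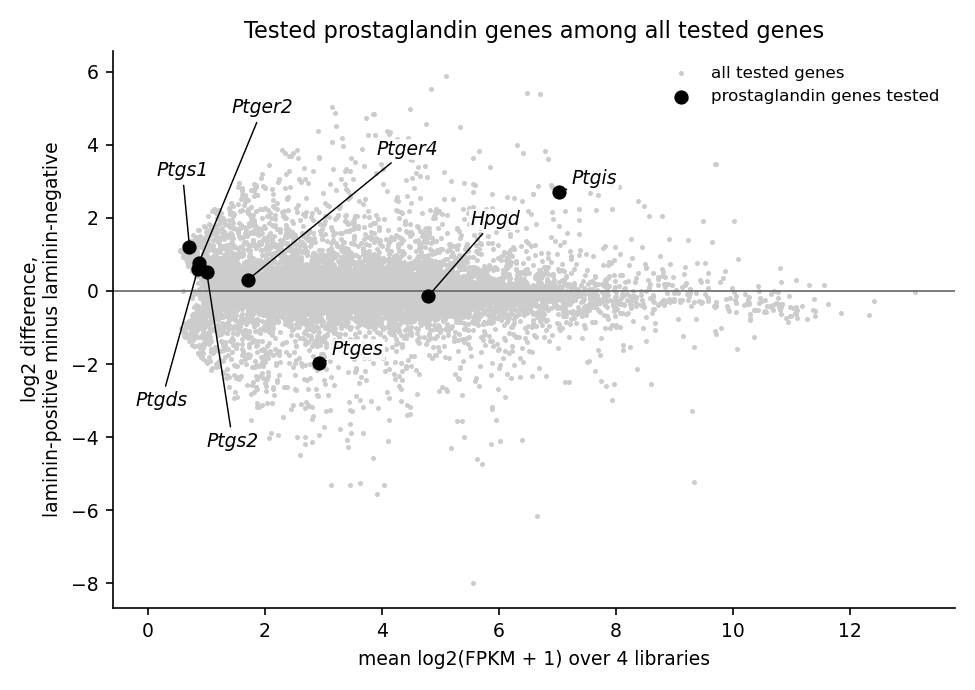
Log2 difference, laminin-positive minus laminin-negative, against mean log2(FPKM + 1) over the 4 libraries for all 12348 tested genes in grey and the 8 tested prostaglandin genes in black. Ptgis at 2.70 and Ptges at -1.98 lie towards the outer edges of the cloud, whereas Ptgs1, Ptgs2, Ptgds and Ptger2 sit at its low end.

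Of 35 other genes of arachidonate metabolism, 24 were tested, of which 3 were called higher and 14 lower in laminin-positive cells, against 26.7% and 26.3% of all tested genes. With this filter their median log2 difference was -0.42, against 0.01 over all tested genes. Of the 24, 5 passed the filter only through the laminin-negative libraries and so had to be lower, namely Faah, Akr1b7, Slco2a1, Ptger3 and Alox12. For these the fit without a filter is given. In that fit 4 were higher and 13 lower of 34, where 19.7% and 17.8% of rows were. The median log2 difference of the 34 was then -0.09, against 0.02 over all those rows.

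Of 7 tested genes that supply arachidonate 2 were called higher and 3 lower, where 26.7% and 26.3% of all tested genes were. With no filter 2 of 9 were higher and 3 lower, where 19.7% and 17.8% of rows were. Pla2g4a, the cytosolic phospholipase A2 that feeds the cyclooxygenases, had 14.8 and 16.1 FPKM in laminin-positive and 7.03 and 7.74 FPKM in laminin-negative libraries (limma adjusted p = 3.46e-06). Acsl4, which attaches coenzyme A to arachidonic acid, was the other gene that rose, at 5.05 and 5.81 FPKM in laminin-positive against 3.22 and 3.32 FPKM in laminin-negative libraries. Faah, which hydrolyses the arachidonate-containing lipid anandamide, had 0.580 and 0.402 FPKM in laminin-positive and 3.12 and 3.21 FPKM in laminin-negative libraries. Without a filter it fell by 1.48 on the log2 scale (limma adjusted p = 2.17e-04). The phospholipase genes Pla2g6, at 4.79 and 4.47 against 7.98 and 6.47 FPKM, and Pla2g12a, at 14.0 and 13.1 against 20.1 and 20.6 FPKM, fell by 0.54 and 0.55 on the log2 scale (limma adjusted p = 0.00185 and 1.57e-04).

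Among 6 other terminal synthases tested, 0 were called higher and 2 lower by limma, where 26.7% and 26.3% of all tested genes were. Of the 2, Akr1b7 passed the filter only through the laminin-negative libraries. With no filter 0 of 7 were higher and 2 lower, where 19.7% and 17.8% of rows were. Akr1b7, an aldo-keto reductase with PGF2α synthase activity, had 0.636 and 0.677 FPKM in laminin-positive and 3.35 and 4.48 FPKM in laminin-negative libraries. It was called lower without a filter (limma adjusted p = 4.21e-04), but not with the filter and without variance shared across genes (0.0520). Ptges2, a membrane-associated PGE synthase, differed little, at 8.92 and 10.3 against 13.0 and 11.9 FPKM (limma adjusted p = 0.0120). It did not pass when replicate 1 of the laminin-positive (0.127) or of the laminin-negative libraries (0.0540) was left out, with sums of FPKM made equal (0.0822) or without variance shared across genes (0.169). Ptges3, the cytosolic PGE synthase also known as the co-chaperone p23, had 71.5 and 80.6 FPKM in laminin-positive and 70.2 and 77.6 FPKM in laminin-negative libraries. Akr1b3, another enzyme with PGF2α synthase activity, had 112 and 103 against 107 and 111 FPKM.

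Ptges3, Akr1b3, Cbr1 and Fam213b did not pass the test. Cbr1, a carbonyl reductase that can turn PGE2 into PGF2α, had 32.6 and 30.9 FPKM in laminin-positive and 33.4 and 34.9 FPKM in laminin-negative libraries. Fam213b, which encodes a prostamide and prostaglandin F synthase, had 13.7 and 18.3 against 13.4 and 12.6 FPKM (limma adjusted p = 0.0944). It was called higher without laminin-positive replicate 1 (0.00138) and with sums of FPKM made equal (0.0195), over a range from 0.00138 to 0.708. Tbxas1, the thromboxane synthase gene, was at 0.0595 and 0.427 FPKM in laminin-positive and 0.0963 and 0.0591 FPKM in laminin-negative libraries, below the filter, and Akr1c18 was listed at 0 in all 4.

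Of 5 genes of transport and inactivation 4 were called lower in laminin-positive cells without a filter, where 17.8% of rows were, and the same number with it. The largest of these differences was that of Slco2a1, the transporter that takes prostaglandins into cells before Hpgd inactivates them. It had 0.174 and 0.192 FPKM in laminin-positive and 2.36 and 2.05 FPKM in laminin-negative libraries, a difference of -1.44 on the log2 scale (SE 0.11 and limma adjusted p = 2.10e-04 without a filter). The reductase gene Ptgr2, which acts on the product of Hpgd, had 5.95 and 6.58 FPKM in laminin-positive and 12.0 and 11.6 FPKM in laminin-negative libraries. Slco2a1 and Ptgr2 were each lower in both laminin-positive libraries, while Hpgd, which acts between them, overlapped between the populations. Leydig and fibroblast markers were lower in the same libraries, and their part in these differences was not tested.

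Of 6 other prostanoid receptors 2 were called lower without a filter, where 17.8% of rows were. With the filter 3 of the 3 tested were called lower, where 26.3% of all tested genes were. Of these, Ptger3 passed it only through the laminin-negative libraries and so had to be lower. Tbxa2r, the receptor through which thromboxane contracts smooth muscle, had 5.86 and 6.20 FPKM in laminin-positive and 18.1 and 18.8 FPKM in laminin-negative libraries. It fell by 1.47 on the log2 scale (SE 0.09, limma adjusted p = 4.92e-08). Ptger3, which encodes the cyclic AMP-lowering receptor EP3, had 0.0722 and 0 FPKM in laminin-positive and 1.01 and 1.46 FPKM in laminin-negative libraries (limma adjusted p = 0.00106 without a filter). It was not called with the filter and without variance shared across genes (0.0685). Leydig and fibroblast markers were lower and smooth muscle markers higher in the same libraries, and their part in the receptor differences was not tested.

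The third, Ptger1, which encodes the receptor EP1, was called lower (limma adjusted p = 0.0455), but its call was lost in 7 of 16 alternatives, in a range from 2.00e-05 to 0.322. Its level is uncertain and is not given. Among the untested receptors Ptgfr and Ptgdr, for PGF2α and PGD2, stayed below 0.1 FPKM in every library. The second PGD2 receptor, Ptgdr2, had 0.346 and 0.120 FPKM in laminin-positive and 0.107 and 0.0938 FPKM in laminin-negative libraries.

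The leukotriene branch uses the same fatty acid. Without a filter 2 of its 6 genes were called higher and 1 lower, where 19.7% and 17.8% of rows were. Alox12, the gene called lower, had 0.446 and 0.438 FPKM in laminin-positive and 1.11 and 1.26 FPKM in laminin-negative libraries. Its log2 difference without a filter was -0.60 (SE 0.10, limma adjusted p = 0.00595). Alox5ap, the partner protein of 5-lipoxygenase and a gene of macrophages, had 7.89 and 8.28 FPKM in laminin-positive and 1.53 and 2.78 FPKM in laminin-negative libraries (log2 difference 1.55, SE 0.17, limma adjusted p = 6.49e-05). The call was lost without variance shared across genes (0.0927). Macrophage markers were also higher in these libraries, and their part was not tested.

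**Figure D4:**
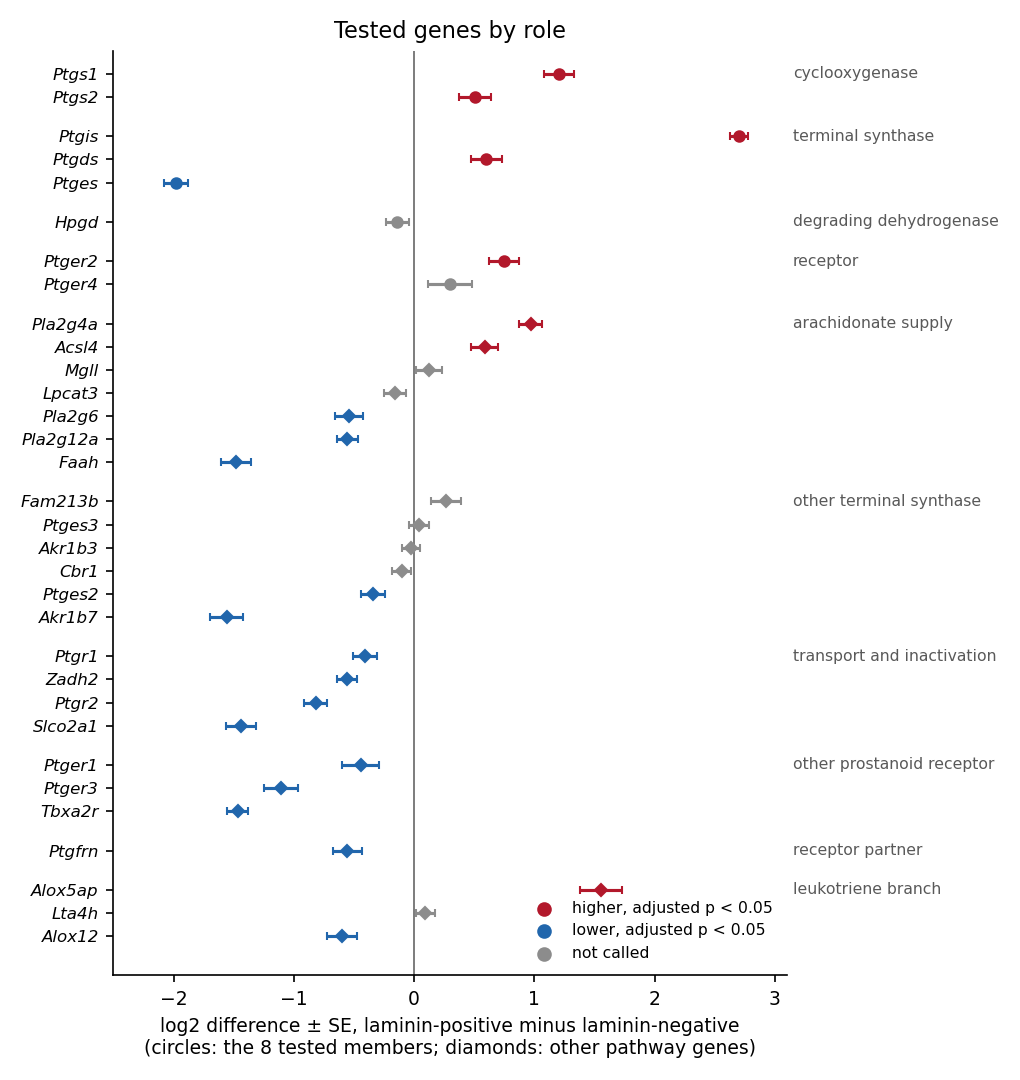
Log2 difference with SE, laminin-positive minus laminin-negative, for the 8 tested prostaglandin genes (circles) and 24 other tested genes of arachidonate metabolism (diamonds), grouped by role and coloured by their limma call. Ptgis is furthest to the right at 2.70 and Ptges furthest to the left at -1.98. The 4 tested genes of transport and inactivation were called lower, where 26.3% of all tested genes were. Of these, Slco2a1 passed the filter only through the laminin-negative libraries and so had to be lower. Abcc4, of the same role, did not pass the filter.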

How the data were processed

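Deposited values are FPKM per library, per the file headers, in 1 table with 4 columns matched to samples by name. TopHat2 2.1.1 and Cufflinks 2.2.1 are listed, with no roles, per the submitters' processing notes. The sources used here give no genome build, annotation or scaling of the libraries. Of 21203 loci with a symbol unique in the table and in GENCODE M21 (GRCm38), 99.6% overlapped the gene of that symbol, so GRCm38 coordinates are given. Laminin-positive was compared with laminin-negative on log2(FPKM + 1) with limma 3.58.1 (R 4.3.3), two-sided, with robust empirical Bayes moderation and an intensity trend and without a replicate block. Residual degrees of freedom were 2, and prior ones had a median of 9.52. The fit was tested on simulated data with changes placed only in genes of higher expression. That run did not test how changes of genes as low as Ptgs1, Ptgs2, Ptgds and Ptger2 are called. Fold differences are ratios of mean FPKM. Deviations of same-numbered libraries from their group means correlated at 0.008 between populations, so the numbers were not taken to pair samples. One marker, Adgre1, was found under an older symbol, Emr1. The genes, lists and tests were chosen with earlier results of these data known. Other pathway genes are named where called with a log2 difference of at least 1, or where they are terminal synthases or prostanoid receptors. Pla2g4a, Acsl4, Pla2g6, Pla2g12a, Alox12, Ptgr2, Insl3, Aard, Cdh5, Gp1bb, Csf1r and Pf4 were named after their values were seen. There were 16 alternatives. One result bearing on Ptger1 is not reported here.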

Additional observations from a re-analysis of the deposited data

How the results depend on the processing

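Ptgs1, Ptgis, Ptges and Ptger2 kept their calls under every alternative in which they were tested (15 for Ptgs1 and Ptger2, 16 for the others). Ptgs1 and Ptger2 had passed the filter only through the laminin-positive libraries, and most of their alternatives kept that filter. With 1 FPKM required in all 4 libraries neither was tested. Without a filter their limma adjusted p was 2.955e-04 and 0.00233. Ptgis ranged from 2.64 to 2.82 and Ptges from -2.28 to -1.88 on the log2 scale. Without variance shared across genes limma called 1346 genes higher and 1211 lower, against 3298 and 3248. It then called 3 prostaglandin genes higher, and 1 of the other pathway genes higher and 6 lower. With the filter set to 1 FPKM in all 4 libraries, 1 prostaglandin gene was called higher and 9 other pathway genes lower, since fewer genes were tested. Leaving out 1 library at a time gave 1 to 2 prostaglandin genes called lower, the second being Hpgd without laminin-negative replicate 1. With FPKM sums made equal after leaving out the ribosomal row Rn45s, the median log2 difference of all tested genes was 0.11 instead of 0.01, and 64.3% of calls were higher instead of 50.4%. With the replicate block, 3364 of 12348 genes were higher and 3334 lower. Of 8 prostaglandin genes 5 were higher and 1 lower, as without it. Leaving out a library leaves 1 in its population, which is then assumed to vary like the other. Depth limits Ptgs1, Hpgds, Ptgir and Ptgds most.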

Other observations

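Rows with names close to those above, chosen after their values were seen, also differed. Ptges3l, a relative of the cytosolic PGE synthase gene, had 9.97 and 10.002 FPKM in laminin-positive libraries and 3.93 and 2.56 FPKM in laminin-negative libraries, a difference of 1.39 on the log2 scale (SE 0.14, limma adjusted p = 1.47e-05). The aldo-keto reductase genes next to Akr1b7 went opposite ways. Akr1b10 had 25.6 and 25.5 FPKM in laminin-positive and 14.1 and 15.2 FPKM in laminin-negative libraries (log2 difference 0.76, limma adjusted p = 9.46e-06). Akr1b8 had 37.3 and 41.2 FPKM in laminin-positive and 51.8 and 56.2 FPKM in laminin-negative libraries (log2 difference -0.45, limma adjusted p = 6.24e-04). These reductase genes are similar in sequence, and the sources used here do not say how reads shared between them were counted.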
